A study of Mus musculus with 12 samples.

Results

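The neurotrophins and their receptors were followed here through 6 genes of the 41091 listed in each count table: the ligands Bdnf and Ntf3, the receptor tyrosine kinases Ntrk2 and Ntrk3, the p75 receptor Ngfr and the sorting receptor Sort1. They were chosen by name, as members of this signaling system, with earlier results of these data known. All 6 passed the filter on low counts in every comparison.

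RNA came from acute hippocampal mini-slices, from which the dentate gyrus had been cut away, of wild-type male C57BL/6 mice aged 2-3 months. Chemical LTP (cLTP) was induced with 50 uM forskolin for 5 min and then forskolin with 30 mM KCl and 10 mM calcium for a further 5 min, and control slices received 0.2% DMSO for 10 min. All slices had recovered for 2 hr beforehand. They were frozen 1 hr or 3 hr afterwards with 3 libraries for each treatment and time, 4 groups in all, named here by hour and by LTP or control. At each time point an LTP and a control library came from the same animal, and each RNA sample pooled several slices. As the treatment bathes the whole slice, neurons and glia were exposed alike, and in such bulk RNA a change in the RNA of each cell cannot be told apart from a change in the number of cells. One 1 hr control library, replicate 2, was set aside as the study did, so the fits used 5 libraries at 1 hr, 6 at 3 hr and 11 over both. By a chi-square statistic per degree of freedom between the counts of 2 libraries, over genes, the set-aside library stood at 47.0 and 63.3 from the other 1 hr controls. The 3 hr LTP libraries, all of which were used, stood at 24.1 to 85.6 from each other, replicates 2 and 3 farthest apart, and the other pairs within a group at 9.49 to 19.3. The depth was 37118382 to 50815001 reads a library. Levels are given as CPM, counts per 1000000 after TMM scaling of the totals, in which 3 reads amount to 0.0584 to 0.0791 CPM. Markers of excitatory neurons, inhibitory neurons, astrocytes and oligodendrocytes were present in every library, and the dentate granule cell markers summed to 182 to 309 CPM, so that trimming left some of their RNA.

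Neurotrophins are small secreted growth factors that bind Trk receptor tyrosine kinases, with BDNF binding TrkB and NT-3 binding mainly TrkC. The Trk receptors signal through adaptor proteins to the ERK, PI3 kinase and phospholipase C pathways. All neurotrophins, and above all their uncleaved precursors, also bind the p75 receptor, which forms a complex with sortilin. In the hippocampus BDNF and TrkB are best known for their part in synaptic plasticity, and Bdnf transcription is a textbook response to neuronal activity through alternative first exons.

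The genes lie on 6 chromosomes of GRCm38 (mm10). Bdnf occupies chr2:109674700-109727007 on the plus strand and has 11 annotated transcripts that share their coding exon. Ntf3 lies at chr6:126101412-126166910 on the minus strand, Ntrk2 at chr13:58806569-59133970 on the plus strand, Ntrk3 at chr7:78175959-78738012 on the minus strand, Ngfr at chr11:95568818-95587735 on the minus strand and Sort1 at chr3:108284082-108361511 on the plus strand. The 2 Trk genes carry far longer exonic sequence than the ligands, with 30170 bases for Ntrk3 and 19292 bases for Ntrk2 against 6217 for Bdnf and 1714 for Ntf3. Of the Bdnf exonic bases, 14.4% lie opposite the antisense gene Gm45346, and of those of Sort1, 4.47% lie opposite Gm12523. Whether reads were counted by strand is not given in the sources used here, so reads of these genes and of their antisense partners may not be separated. Counts were per gene, so Bdnf transcripts with different first exons, and the full-length and kinase-lacking forms of TrkB and TrkC, were added together.

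Forskolin raises cyclic AMP, which acts on transcription through CREB and the cAMP response element, so the start sites of these genes were searched for that element. RefSeq windows (GRCm38.p6) of 250 bases before to 50 bases after each start were at hand for Bdnf (7 windows), Ntf3 (2), Ntrk2 (1) and Ngfr (1). The palindrome TGACGTCA, searched on both strands, was in none of these 11 windows and in 1.79% of all 32851 windows. The half-site TGACG, which the palindrome contains, was searched on both strands and was found in 20.8% of all windows and in 1 of these 11, the third Bdnf window. It lies 35 bases before that start, at chr2:109692376-109692435 on the plus strand, in the stretch shown here because it is the only one of the windows to hold it, with the half-site, read as CGTCA on this strand, in capitals.

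Bdnf, start 3: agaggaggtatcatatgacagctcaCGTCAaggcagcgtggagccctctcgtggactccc

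The match is a match of letters and says nothing of which start was in use, since the counts were not split by transcript.

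The levels of the 6 genes differed widely. Per exonic kilobase, over the 11 libraries, Sort1 was the highest with a mean of 116 CPM per kb, followed by Ntrk2 with 36.9, Bdnf with 25.6, Ntrk3 with 4.58, Ntf3 with 1.89 and Ngfr with 0.23. Per coding kilobase the order was the same, from 340 CPM per kb for Sort1 to 0.62 for Ngfr. On the CPM scale the library values were 807 to 973 for Sort1, 674 to 770 for Ntrk2, 144 to 173 for Bdnf, 117 to 173 for Ntrk3, 1.55 to 5.78 for Ntf3 and 0.422 to 1.14 for Ngfr. Thus the TrkB and sortilin mRNAs were abundant throughout, whereas Ngfr, with 16 to 47 reads in a library, was near the limit of what could be measured.

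**Figure D1:**
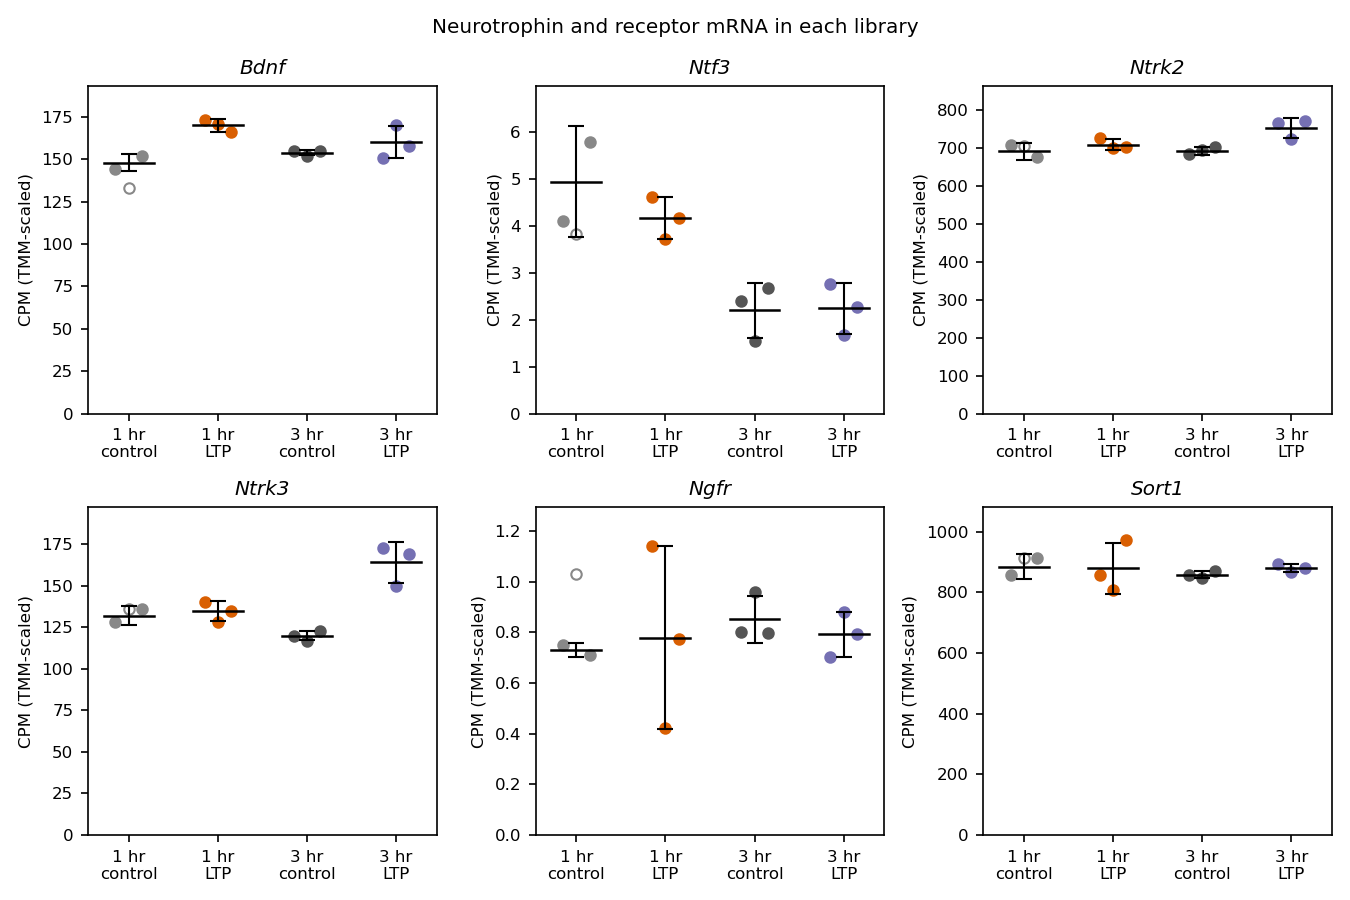
CPM of the 6 genes in each library (points), by group, with the mean and SD of the libraries used in the fits (black bars); the open symbol is the 1 hr control library set aside. The 3 hr LTP values of Ntrk3, at 150 to 173 CPM, stand above all other libraries, and Ntf3 is lower in both 3 hr groups than in both 1 hr groups.

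The first question was whether cLTP raised the ligand BDNF. At 1 hr Bdnf measured 173, 171 and 166 CPM in the LTP libraries against 144 and 152 CPM in the control libraries used in the fit, with 133 CPM in the library set aside. The groups did not overlap, as was so for 22.6% of all genes tested at 1 hr, and each LTP library was above the control of its own animal, by 0.26, 0.36 and 0.13 on the log2 scale in animals 1 to 3, where animal 2 has the set-aside control. The fitted difference was 0.21 on the log2 scale (SE 0.0657, 95% interval 0.07 to 0.35, 1.16-fold), with an adjusted p of 0.362 by edgeR's quasi-likelihood test over all 17736 genes. A gene was called when its adjusted p was under 0.1 and its fold change over 1.2, which 0.789% of the tested genes met at 1 hr. Bdnf was therefore not called. Its adjusted p ran from 0.00173 to 0.994 over the alternative settings, and its fold change stayed under 1.2 even at the lowest of these, where an animal block was combined with corrections for GC content and exonic length.

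At 3 hr Bdnf measured 151, 170 and 158 CPM in the LTP libraries against 155, 152 and 155 CPM in the control libraries. The groups overlapped, with 1 LTP library below all controls. The difference was 0.065 on the log2 scale (95% interval -0.068 to 0.2, adjusted p = 0.575, edgeR), and the change in the LTP effect between 1 hr and 3 hr was -0.14 (adjusted p = 0.864, edgeR). Between the control groups Bdnf differed by 0.027 (adjusted p = 0.771, edgeR). This last value depended on the processing. Bdnf transcripts are poor in G and C, with a GC content of 40.5%, and the 1842 tested genes in the lowest decile of GC content had a median of -0.26 between the control groups. After offsets for GC content and exonic length, Bdnf was higher in 3 hr than in 1 hr controls by 0.27 (adjusted p = 0.00691, edgeR), and after offsets for GC content and coding length by 0.31 (adjusted p = 0.00905, edgeR), both of which passed the calling rule.

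Ntf3, which encodes NT-3, did not respond to cLTP at a detectable size but was lower in the later slices. The 1 hr control libraries measured 4.11 and 5.78 CPM and the 1 hr LTP libraries 4.62, 3.72 and 4.16 CPM. At 3 hr the controls measured 2.4, 1.55 and 2.67 CPM and the LTP libraries 2.77, 1.67 and 2.27 CPM. Every 3 hr library was thus below every 1 hr library, the set-aside one (3.83 CPM) included. The 3 hr control group was at 0.438 times the level of the 1 hr control group, a difference of -1.19 on the log2 scale (SE 0.237, 95% interval -1.7 to -0.68, adjusted p = 0.00235, edgeR). Calls between the control groups were common, as 32.8% of the 18584 genes tested were called and 16.8% were called lower, and 60.7% had groups that did not overlap. Ntf3 was the single member called there. Leaving out 1 hr control replicate 3, which held the highest value, brought the difference to -0.88 (adjusted p = 0.0617, edgeR), and Ntf3 was still called. That fit held 1 library of 1 hr controls, which was assumed to vary like the other groups. The effect of cLTP on Ntf3 was -0.24 at 1 hr (95% interval -0.62 to 0.14, adjusted p = 0.92) and 0.029 at 3 hr (95% interval -0.53 to 0.59, adjusted p = 0.964, both edgeR), and differences within these intervals were not detectable at this level of expression.

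Several cell type markers also differed between the control groups. Time in the chamber and any difference between the sets of animals cannot be told apart there. Over all lists 30 of the 72 markers tested were called, where 32.8% of all genes were called, 16.1% higher and 16.8% lower. The lists of inhibitory neurons, dentate granule cells and astrocytes were near or below that share. Higher and lower in this paragraph count calls, in the fit without offsets for GC content and length. Of the 6 microglial markers 5 were called lower at 3 hr, with a summed level of 290 to 301 CPM at 1 hr and 202 to 232 CPM at 3 hr. Of the 6 mural cell markers 4 were called lower (187 to 190 against 137 to 145 CPM), as were 3 of the 5 endothelial markers (112 to 115 against 87.0 to 90.1 CPM). Of the 6 oligodendrocyte markers 3 were called higher (5870 to 7360 against 7850 to 9500 CPM), as were 3 of the 4 markers of their precursors (157 to 171 against 184 to 203 CPM). Called or not, all 6 oligodendrocyte markers had higher fitted levels, and all microglial and mural cell markers had lower ones. Among the neuronal lists, 2 of the 4 CA1 pyramidal cell markers were higher (361 to 415 against 442 to 527 CPM), and of the 5 CA3 markers 3 were lower and 1 higher (388 to 404 against 337 to 371 CPM). Of the 5 excitatory neuron markers 1 was lower, Neurod6 (306 to 382 against 144 to 173 CPM), while the list summed to 2960 to 3070 CPM and 3000 to 3140 CPM. The inhibitory neuron list had 1 marker higher and 1 lower of 6 (448 to 517 against 462 to 506 CPM), and the astrocyte list 1 lower of 6 (4810 to 5010 against 4840 to 5020 CPM). The dentate granule cell list, whose cells are a known source of NT-3, had 1 member higher and 1 lower of 6 (235 to 261 against 215 to 258 CPM). None of the 4 CA2 markers was called by edgeR, by DESeq2 or at an unadjusted p under 0.05 (169 to 181 against 152 to 161 CPM). No marker of these lists was at 0 in either control group. The part of these shifts in the fall of Ntf3 was not tested.

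Among the receptors, Ntrk3 rose after cLTP. It encodes TrkC, the receptor of NT-3. The 3 hr LTP libraries measured 173, 150 and 169 CPM and the 3 hr control libraries 120, 117 and 123 CPM, so that the groups were well apart and each LTP library was above its own animal's control, by 0.53, 0.36 and 0.46 on the log2 scale. The difference was 0.47 (SE 0.0683, 95% interval 0.31 to 0.62, 1.38-fold, adjusted p = 0.0108, edgeR). Ntrk3 was the single member called at 3 hr, where 6.6% of the 17508 tested genes were called, 5.07% were called higher and 27.0% had groups that did not overlap. The call was kept when any 1 library was left out, with differences of 0.42 to 0.53 and adjusted p-values of 0.000855 to 0.0857.

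The size of the Ntrk3 difference depended on how gene length was treated. Exonic length here joins the annotated exons of all transcripts of a gene, 20 for Ntrk3, of which 6 are coding. It is not the length of a single mRNA. Only 0.0979% of the tested genes have a longer exonic sequence than Ntrk3. In the longest decile of genes, 1736 genes of at least 9467 exonic bases, the median difference at 3 hr was 0.1 and 14.1% were called, against a median of -0.0032 over all genes. With offsets for GC content and exonic length the Ntrk3 difference was 0.19 (adjusted p = 0.0397, edgeR), below the fold threshold. With offsets for GC content and coding length it was 0.4 (adjusted p = 0.00639, edgeR) and was called. The study compared reads of the coding region, but whether the deposited counts were limited to it is not given in the sources used here.

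At 1 hr Ntrk3 measured 140, 128 and 135 CPM with LTP and 128 and 136 CPM in controls, a difference of 0.039 (95% interval -0.11 to 0.19, adjusted p = 0.968, edgeR). The LTP effect at 3 hr exceeded that at 1 hr by 0.44 (SE 0.0974, 95% interval 0.23 to 0.64), but with an adjusted p of 0.252 over 18584 genes by edgeR this difference was not called. Calls of this kind were rare, at 0.0592% of the genes. DESeq2 called it, with 0.43 and an adjusted p of 0.0294. The 3 hr controls were the lowest of the 4 groups for Ntrk3, at 120 ± 2.89 CPM (SD, n = 3) against 132 ± 5.53 CPM in 1 hr controls (SD, n = 2), a difference of -0.17 (adjusted p = 0.0942, edgeR) that fell short of the fold threshold. This difference was -0.03 with offsets for GC content and exonic length (adjusted p = 0.725, edgeR). The 3 hr LTP group was at 164 ± 12.2 CPM (SD, n = 3).

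Ntrk2, which encodes the BDNF receptor TrkB, was not called in any comparison. At 3 hr its LTP libraries measured 764, 722 and 770 CPM and its control libraries 682, 693 and 702 CPM. The groups did not overlap, as was so for 27.0% of all genes tested at 3 hr, and all 3 animals had a higher LTP value, by 0.16, 0.059 and 0.13 on the log2 scale. The difference was 0.13 (95% interval -0.0041 to 0.27, adjusted p = 0.262, edgeR), and it was -0.06 with offsets for GC content and exonic length and 0.075 with coding length in its place. At 1 hr the difference was 0.047 (adjusted p = 0.959) and between controls -0.025 (adjusted p = 0.797, both edgeR). The ratio of Ntrk3 to Ntrk2 within a library was 0.208 to 0.227 in the 3 hr LTP libraries and 0.169 to 0.202 in all others.

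**Figure D2:**
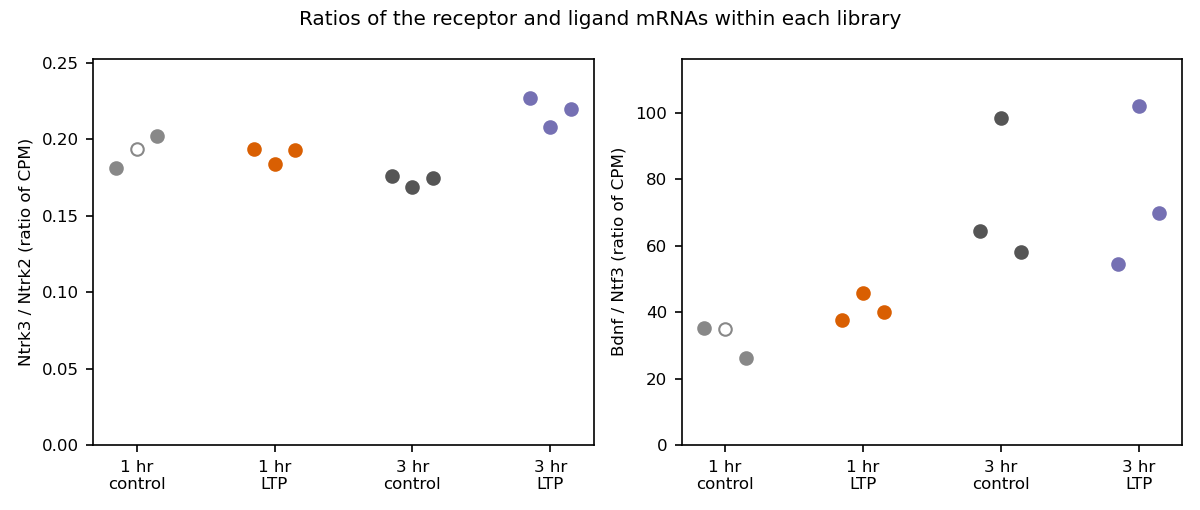
Ratio of Ntrk3 to Ntrk2 CPM (left) and of Bdnf to Ntf3 CPM (right) in each library, by group; the open symbol is the 1 hr control library set aside. The receptor ratio is highest in the 3 hr LTP libraries (0.208 to 0.227), and the ligand ratio is 26.2 to 45.9 at 1 hr and 54.5 to 102 at 3 hr in both treatments.

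Ngfr, the p75 receptor, is made in adult brain mainly by cholinergic neurons of the basal forebrain, whose axons but not cell bodies lie in the hippocampus. Its values in LTP and control libraries overlapped at both times, with 0.422 to 1.14 CPM in the 1 hr LTP libraries alone. The LTP effects were 0.11 at 1 hr and -0.09 at 3 hr (adjusted p = 0.992 and 0.842, edgeR), with 95% intervals of -0.74 to 0.97 and -0.54 to 0.36. Sort1, the highest of the 6 per kilobase, differed by 0.0016 at 1 hr, 0.05 at 3 hr and -0.072 between controls (adjusted p = 0.999, 0.667 and 0.522, edgeR), and its group means ran from 859 ± 11.5 CPM in 3 hr controls to 885 ± 40.7 CPM in 1 hr controls (SD, n = 3 and n = 2).

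Over the 6 genes, edgeR thus called 0 at 1 hr (1 had an unadjusted p under 0.05, and DESeq2 and limma-voom also called 0), 1 at 3 hr, 1 between the controls and 0 for the change of the LTP effect (1 with an unadjusted p under 0.05, 1 by DESeq2).

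**Figure D3:**
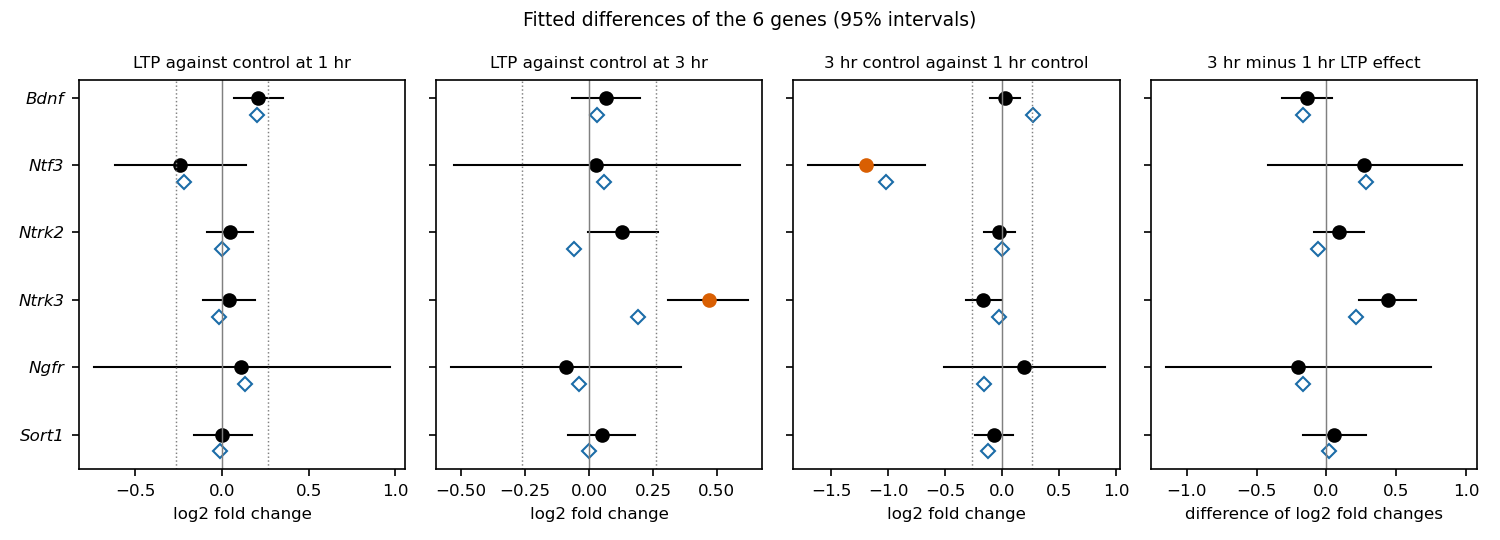
Fitted differences of the 6 genes on the log2 scale (circles) with 95% intervals, in the 4 comparisons; orange marks the calls, dotted lines the 1.2-fold threshold and blue diamonds the value with offsets for GC content and exonic length. Calls are limited to Ntrk3 at 3 hr (0.47) and Ntf3 between the control groups (-1.19), and the diamond of Ntrk3 lies at 0.19.

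The rest of the pathway was examined through 93 listed genes in 6 lists. These lists were drawn up with earlier results of these data known, so their counts describe them and test nothing. The study had already named Dusp6, Npas4 and Nfkb1, which are in the lists, among its top genes. At 1 hr 89 were tested, 6 were called higher and 0 lower, where 0.778% of all genes were called higher, and the median difference was 0.037 against -0.001 over all genes. At 3 hr 13 were higher and 1 lower of 89, where 6.6% of all genes were called and 5.07% called higher, with a median of 0.061 against -0.0025. The 14 calls at 3 hr became 7 without 3 hr control replicate 1 or 2 and 8 without 3 hr control replicate 3 or 3 hr LTP replicate 1. The list of 16 negative regulators of Trk and ERK signaling held 4 of these calls at 1 hr and 7 at 3 hr, all of them higher, with list medians of 0.066 and 0.29.

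Among these negative regulators, Dusp6, a phosphatase that inactivates ERK, measured 282 ± 9.78 CPM with LTP at 1 hr (SD, n = 3) against 135 ± 16.4 CPM in controls (SD, n = 2), a 2.1-fold difference (1.07 on the log2 scale, SE 0.0796, adjusted p = 1.74e-06, edgeR). At 3 hr it was 0.62 higher (adjusted p = 0.00803, edgeR). Dusp5, a nuclear ERK phosphatase, rose by 0.62 and 0.63 on the log2 scale at the 2 time points. For Dusp5, 22.1% of the exonic bases are shared with another gene, so its counts are less certain. Spry2, an inhibitor of receptor tyrosine kinase signaling, rose by 0.47 and 0.40 (adjusted p = 0.00599 and 0.0137, edgeR), and its 1 hr call was lost without 1 hr control replicate 1 (adjusted p = 0.251). Since 2 control libraries were in the 1 hr fit, leaving 1 out set the LTP libraries against a lone control, assumed to vary as they do, here and in the 1 hr fits without a control given for Dusp4 and Irs2.

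The other calls of this list were each lost when certain single libraries were left out. Dusp4, a further phosphatase of MAP kinases, was higher by 0.37 at 1 hr and 0.29 at 3 hr (adjusted p = 0.085 and 0.0576, edgeR). Its 1 hr call was lost in 7 of 18 alternatives, among them limma-voom, the fit with all 1 hr libraries and the fits without 1 hr LTP replicate 1 or 1 hr control replicate 1 or 3. The set-aside control, at 39.7 CPM, lay within the 38.0 to 44.3 CPM of the 1 hr LTP libraries. At 3 hr the ubiquitin ligase Cbl, which marks activated receptors for degradation, was higher by 0.49 (adjusted p = 0.0222, edgeR), a call lost without 3 hr control replicate 1 or 2 (adjusted p up to 0.124). Spry4 was higher by 0.52 (adjusted p = 0.0587, edgeR) and Nedd4l, another ubiquitin ligase, by 0.39 (adjusted p = 0.0444, edgeR). The 3 hr calls of Dusp4, Spry4 and Nedd4l were each lost without 3 hr LTP replicate 1 or any 1 of the 3 hr controls, with adjusted p-values of up to 0.261, 0.212 and 0.219.

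Of the 19 transcription regulators of Bdnf, Npas4 was called at 1 hr, and Npas4, Nfkb1 and Hdac4 at 3 hr. Npas4, an activity-dependent transcription factor, was at 134 ± 19.3 CPM with LTP at 1 hr (SD, n = 3) and at 22.3 ± 2.76 CPM in the controls (SD, n = 2), a 6.06-fold difference (adjusted p = 7.15e-09, edgeR). At 3 hr it was 2.7-fold higher (adjusted p = 0.00633, edgeR). Nfkb1, which encodes an NF-kappa-B subunit, differed by 0.072 at 1 hr and rose by 0.75 at 3 hr (SE 0.0564, adjusted p = 0.000651, edgeR). Its change between the time points was 0.69 (SE 0.0878, adjusted p = 0.0166, edgeR). This was the single call among the 90 pathway genes tested for such a change (2 with an animal block, Nfkb1 and Npas4). The call was lost without 1 hr control replicate 3, a fit that held a lone 1 hr control. Hdac4, a histone deacetylase, was higher by 0.34 at 3 hr (adjusted p = 0.076, edgeR), a call lost without any 1 of the 3 hr libraries other than LTP replicate 2, with an adjusted p of up to 0.264. Of its exonic bases 22.4% are shared with Gm26720. Creb1 was not called at either time.

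Of the 21 adaptors and effectors of Trk receptors, Sos1, a Ras exchange factor, was higher at 3 hr (0.48, SE 0.0601, adjusted p = 0.00551, edgeR), and Irs2, an insulin receptor substrate, was higher by 0.72 at 1 hr and 0.66 at 3 hr (adjusted p = 0.00354 and 0.0842, edgeR). The 1 hr call of Irs2 was lost with all 1 hr libraries included, in 1 model of the 4 groups and without 1 hr control replicate 3 (adjusted p up to 0.127 with a library left out), and the set-aside control, at 70.5 CPM, lay within the 64.7 to 80.9 CPM of the 1 hr LTP libraries. Its 3 hr call was lost without 3 hr LTP replicate 1 or any 1 of the 3 hr controls (adjusted p up to 0.278). Of the other neurotrophins and sorting receptors, Sorl1 was higher at 3 hr (0.30, adjusted p = 0.0464, edgeR), a call lost without the same libraries (adjusted p up to 0.221). None of the 13 partners of p75 was called at 1 hr or 3 hr (edgeR; 1 and 2 of them had an unadjusted p under 0.05, and DESeq2 and limma-voom called 0). Among the 16 genes of proneurotrophin processing and release, the call at 3 hr was Mmp3, a matrix protease able to cleave proneurotrophins, which was lower with a difference of -1.74 on the log2 scale (adjusted p = 0.0121, edgeR). Its values were 0.341, 0.308 and 0.396 CPM with LTP against 0.865, 1.37 and 1.28 CPM in controls, from 14 to 15 and 40 to 66 reads, while the 1 hr libraries held 0 to 5 reads.

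With offsets for GC content and exonic length the pathway count at 3 hr was again 14, but Sorl1, Hdac4 and Nedd4l, with differences of 0.20, 0.19 and 0.21, no longer passed the fold threshold. Crtc1 (0.29), Mef2c (-0.30) and Mef2d (0.33), named after their values were seen, were called in their place, and Npas4, Nfkb1, Irs2, Sos1, Spry2, Spry4, Cbl, Mmp3 and the 3 Dusp genes in both fits.

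**Figure D4:**
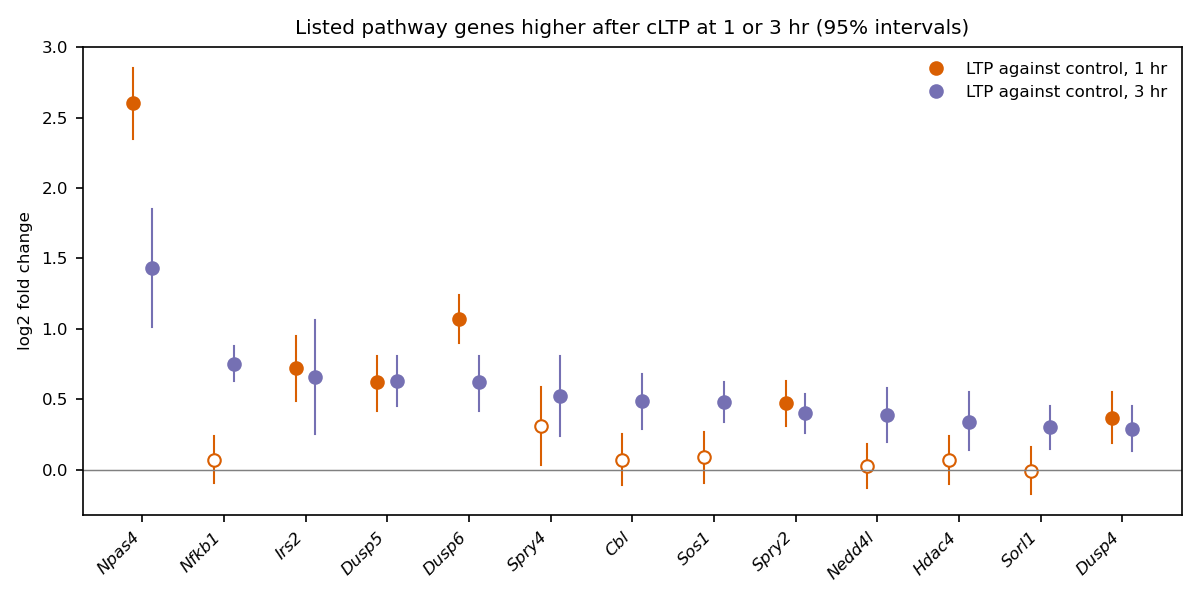
Differences between LTP and control on the log2 scale with 95% intervals at 1 hr (orange) and 3 hr (purple) for the 13 listed pathway genes called higher at either time; filled circles are calls. Npas4 has the largest difference at both times (2.60 and 1.43). Nfkb1, Cbl, Sos1, Nedd4l, Hdac4, Sorl1 and Spry4 are called at 3 hr and not at 1 hr. Of these, edgeR called the change of the LTP effect between the times for Nfkb1 alone.

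Between the control groups 35 pathway genes were higher at 3 hr and 10 lower of 90, where 16.1% of all genes were called higher and 16.8% lower, with a median of 0.21 against -0.019 over all genes. Furin, a protease that cleaves proneurotrophins, was 0.97 higher (SE 0.188, adjusted p = 0.00198, edgeR), and Plat, the tissue plasminogen activator that starts the cleavage of proBDNF through plasmin, was 0.49 higher (adjusted p = 0.00142, edgeR). Lrig1, an inhibitor of receptor tyrosine kinases, was 0.73 higher (adjusted p = 5.12e-05, edgeR). Creb1 fell by 0.37 and Hdac2 fell by 0.45 on the log2 scale. These values share the 1 hr and 3 hr control libraries with the LTP comparisons. With offsets for GC content and exonic length the count was 27 instead of 45 genes, with Furin at 0.65, Plat at 0.55 and Lrig1 at 0.55 and still called, and Creb1 and Hdac2 at -0.20 and -0.26, under the fold threshold.

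The genes most like Bdnf, Ntf3 and Ntrk3 in pattern were found by the root mean square difference of centred log2 CPM over the 12 libraries. For Bdnf these were Hnrnpll (0.0567), Ddx5 (0.0573) and Cdkn1b (0.0607), where Bdnf itself varied by 0.105 about its mean and the median over 18237 genes was 0.248. Of these Hnrnpll was called at 1 hr (0.31, adjusted p = 0.0734, edgeR). For Ntf3 they were Slc22a8 (0.227), an unnamed gene with the identifier ENSMUSG00000094114.1 (0.252) and Xdh (0.253), all 3 lower in the 3 hr controls, with differences of -0.99, -1.06 and -0.67 on the log2 scale. For Ntrk3 they were the sodium channel gene Scn8a (0.0447), Fry (0.0465) and Atxn7 (0.0512), each called higher at 3 hr, with differences of 0.44, 0.41 and 0.42. These genes were chosen on the same libraries, so their differences describe the pattern and are not further evidence of it.

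The cell type marker lists were also compared between LTP and control. At 1 hr edgeR called 0 of the 72 markers tested (16 had an unadjusted p under 0.05, and DESeq2 called 3). At 1 hr all 5 endothelial and all 6 mural cell markers had lower fitted levels with LTP, with sums of 93.5 to 99.8 against 112 to 115 CPM and of 163 to 179 against 187 to 190 CPM, and all 6 oligodendrocyte markers had higher ones, with sums of 7120 to 8450 against 5870 to 7360 CPM. The 5 markers of fibroblasts and meninges had lower fitted levels with LTP at both times, with sums of 14.8 to 21 against 18.5 to 33.5 CPM at 1 hr and 13.5 to 22.9 against 20.4 to 29.5 CPM at 3 hr. At 3 hr edgeR called 0 of them (2 had an unadjusted p under 0.05, and DESeq2 called 1). The astrocyte markers, of cells in which the short form of TrkB is common, summed to 4410 to 5320 CPM in 3 hr LTP libraries and 4840 to 5020 CPM in 3 hr controls, and edgeR called 0 of them (1 had an unadjusted p under 0.05, and DESeq2 called 1). The part of these levels in the change of Ntrk3 was not tested.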

How the data were processed

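Total RNA was depleted of ribosomal RNA, made into stranded libraries and sequenced as paired ends. The authors aligned reads with STAR to mm10 and counted them per gene in R. The deposited tables hold raw counts for 41091 genes. How strand and reads with several matches were treated is not given in the sources used here. The submitters' processing notes name DESeq2. The study compared coding-region reads, but the tables also hold 18327 genes without coding sequence, so the region counted is uncertain. The samples had been chosen by the study for sequencing after measuring Arc and Homer1. No mitochondrial gene is in the tables, and 40217 identifiers matched GENCODE M21, whose gene lengths were used.

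Counts were tested in edgeR 4.0.16 (R 4.3.3) with filterByExpr, TMM scaling, the quasi-likelihood test and Benjamini-Hochberg adjustment over all tested genes, each time point alone. The controls and the change of the LTP effect were fitted in 1 model of 4 groups. CPM values use TMM-scaled library totals. Genes were called at an adjusted p below 0.1, with at least a 1.2-fold difference except for the change of effect. The script was tested on simulated data. DESeq2 1.42.0, limma-voom (limma 3.58.1), other scalings and filters, and each library left out in turn were alternatives. Offsets for GC content and length (splines with 5 degrees of freedom) were added after seeing the data. The text names the 6 genes, pathway genes called in a comparison and the 3 genes nearest in pattern. Members and lists were chosen with earlier results of these data known. Most listed genes are given only within counts, and some results are not reported here.

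LTP and control libraries of a time point came from the same animals per the labels, and their deviations from the group means had correlations of -0.0169, -0.134 and 0.0741 (the 1 hr pairs) and of 0.0297, -0.0384 and 0.194 (the 3 hr pairs). The samples are separate animals within a group. Whether the animals differ between the time points is not given in the sources used here. The depth sets the counting error alone.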

Additional observations from a re-analysis of the deposited data

Results flagged for a closer look

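The LTP effect on Nfkb1 differed between the time points, by 0.69 on the log2 scale in a test of the difference itself (SE 0.0878, adjusted p = 0.0166, edgeR). Nfkb1 measured 52.2 ± 2.47 CPM with LTP (SD, n = 3) and 50.0 ± 0.928 CPM in controls (SD, n = 2) at 1 hr, and 111 ± 3.05 against 66.5 ± 2.24 CPM (SD, n = 3 each) at 3 hr. With offsets for GC content and exonic length the difference was 0.61 (adjusted p = 0.0327, edgeR). With a library left out it was 0.64 to 0.74. The call was lost without 1 hr control replicate 3, a fit that held a lone 1 hr control.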

How the results depend on the processing

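Of the 2 calls among the 6 genes, the fall of Ntf3 between controls was kept in every alternative run. The rise of Ntrk3 at 3 hr was kept in all but the fits with offsets for GC content and exonic length, chosen after seeing the data, where 0 of the 6 genes were called, with or without an animal block. With offsets for GC content and exonic length or coding length, 2 were called between controls, Bdnf and Ntf3. For the change of the LTP effect, 1 of the 6 (Ntrk3) was called by DESeq2, with no filter beyond 1 count and without 3 hr LTP replicate 2, so the leave-one-out counts were 0 to 1. Pathway genes called for this change were 2 with DESeq2, with the replicate block and with either kind of offset, also with the block, 3 with no filter, and 0 to 2 with a library left out, the 0 without 1 hr control replicate 3. Pathway calls at 3 hr were 7 to 19 with a library left out, 7 without 3 hr control replicate 1 or 2 and 8 without 3 hr control replicate 3 or 3 hr LTP replicate 1, and 27 between controls with exonic-length offsets. The replicate block by animal left the calls of the 6 genes as they were and gave 7 and 18 pathway calls at 1 hr and 3 hr. The controls of the 2 times were not paired, since whether they share animals is not given in the sources used here.

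Signs were followed for the 6 genes and for the pathway genes called in the comparison concerned, and they turned only where the gene was not called in that fit. At 1 hr these were Ntf3 (-0.46 to 0.03 with a library left out), Ntrk3 (-0.0041 to 0.081, and -0.024 with exonic-length offsets), Ntrk2 (-0.0043 with those offsets), Ngfr (-0.26 to 0.4, -0.084 with all libraries and -0.13 with the block too) and Sort1 (-0.075 to 0.056, -0.0083 in 1 model of 4 groups, -0.0004 with DESeq2 or its size factors, -0.017 with all libraries and -0.02 with the block too, -0.0016 with limma-voom, -0.0019 with no filter, -0.015 and -0.011 with exonic-length and coding-length offsets). At 3 hr they were Ntf3 (-0.17 to 0.21 with a library left out) and Ntrk2 (-0.06 with exonic-length offsets, with or without the block). Between controls they were Ntrk2 (0.0076 with at least 10 counts, 0.015 with library totals, 0.00054 and 0.02 with the offsets, -0.021 to 0.049 with a library left out), Ngfr (-0.16 and -0.14 with the offsets), Sort1 (-0.078 to 0.013 with a library left out), and, with offsets alone, the genes called higher in the reported fit, Hdac5 (-0.039, exonic length) and Rtn4r (-0.054, coding length). For the change of the LTP effect they were Ntf3 (-0.024 to 0.47), Ngfr (-0.47 to 0.18, and 0.03 with the block and all libraries), Sort1 (-0.019 to 0.14, and -0.03 with block and offsets) and Ntrk2 (-0.055 with exonic-length offsets, -0.062 with the block too). The cause was not tested.

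Over all genes, calls at 1 hr were 140 in the reported fit, 347 with no filter, 315 with block and offsets, and 69 to 344 with a library left out. At 3 hr they were 1155 and 228 to 2170 with a library left out, fewest without 3 hr control replicate 2. For the change of effect they were 11, 80 with DESeq2, 102 with no filter, 21 and 23 with the offsets, 19 with block and offsets, 7 with block and all libraries, and 1 to 67 with a library left out. Ngfr was measured from 16 to 47 reads in a library. Its 1 hr LTP libraries held 47, 16 and 33 reads, and counting error and differences between animals were not separated.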
